A study of Mus musculus with 24 samples.

Results

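The inflammasome and pyroptosis genes described here are 10 mouse genes taken by symbol from the count tables: the sensors Nlrp3, Aim2, Nlrc4, Naip5 and Nlrp1b, the adaptor Pycard, the caspases Casp1 and Casp4, the pore protein Gsdmd and the cytokine Il18. Each symbol stood on 1 row of both tables, so that 10 of the 56691 genes listed were followed. Poly(A) RNA was measured by RNA-seq in 24 libraries, 12 from RAW264.7, a mouse macrophage-like cell line, and 12 from bone marrow-derived macrophages (BMDMs). The question was what loss of Olfml3, which encodes the secreted protein olfactomedin-like 3, does in resting and stimulated macrophages. In each cell type 4 groups of 3 libraries were compared: wild type with PBS, Olfml3 knockout with PBS, wild type with lipopolysaccharide (LPS) and Olfml3 knockout with LPS, the LPS being given at 100 ng/mL for 4 h. The RAW264.7 knockout was made with a CRISPR lentivirus and grown from single cells, and how many clones lie behind the libraries is not known here. The BMDMs came from marrow of 8-week-old male C57BL/6 mice, wild type or with the germline Olfml3-/- deletion, and were differentiated with L929-conditioned medium. Groups were taken from the sample titles, because the genotype tag contradicted the title in 12 of the 24 libraries. No label says that the 3 libraries of a group came from separate animals or cultures, so the p-values measure only the spread between libraries, which may be technical. The study's text calls its RNA-seq libraries biological replicates, without saying whether animals or cultures were repeated.

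Inflammasomes are protein platforms that form in the cytosol of macrophages when a sensor meets a microbial or danger signal. Most sensors recruit the adaptor ASC, encoded by Pycard, which gathers and activates caspase-1. Caspase-1 then cleaves pro-IL-18, pro-IL-1beta and gasdermin D, whose freed end opens pores in the plasma membrane and leads to the lytic death called pyroptosis. Mouse caspase-11, encoded by Casp4, binds cytosolic LPS directly and cleaves gasdermin D without ASC. LPS at the cell surface raises transcription of several of these genes, a step called priming, and the RNA measured here reports on priming and not on assembly or cleavage.

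Libraries held 11638273 to 16478616 counts in RAW264.7 and 17121240 to 22873094 in BMDMs. Olfml3 was present at 0.322 to 0.516 normalised FPKM (FPKM scaled for library composition) in wild-type BMDMs and at no more than 0.0233 in knockout BMDMs. In RAW264.7 it went against the label: wild-type libraries held 0.139 to 0.32, the labelled-knockout libraries with PBS 0.595, 0.92 and 1.09, and those with LPS 20.4, 20.2 and 19.7. These 6 libraries are therefore called "labelled knockout" throughout, and reads from an edited transcript cannot be told apart from unedited ones in these counts. Replicate 1 of the RAW264.7 labelled-knockout PBS group stood apart, with a mean correlation of 0.968 with its own group and 0.971 with the wild-type PBS libraries, against 0.98 to 0.992 and 0.939 to 0.952 for the other RAW264.7 libraries. Fits without it, given below, were added after seeing the data. Leaving out a library this close to wild type favours larger genotype differences and a smaller spread, so their p-values are not independent support. The summed level of macrophage markers was 2724 to 2768 in wild-type and 958 to 1176 in labelled-knockout RAW264.7 with PBS, and 2969 to 3143 and 892 to 926 with LPS, with 6 of the 7 markers tested. Over the same groups 4 dendritic cell markers summed to 1.01 to 1.27, 7.89 to 9.19, 0.751 to 0.865 and 2.95 to 3.03, and every other marker list stayed at or below 0.801. The RAW264.7 macrophage markers did not move together with PBS. By log2 difference, Lyz2 (-2.73), Itgam (-1.81), Adgre1 (-1.24) and Cd68 (-0.39) were lower in the labelled knockout, while Csf1r (0.33) and Fcgr1 (0.24) lay above 0. With LPS all 6 were lower, from -2.48 (Itgam) to -0.32 (Adgre1). In BMDMs all 7 macrophage markers were tested and summed to 11641 to 16296 over the 12 libraries, against 4.21 to 11.6 for neutrophil, 0.362 to 1.01 for fibroblast and at most 0.293 for other markers.

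**Figure D1:**
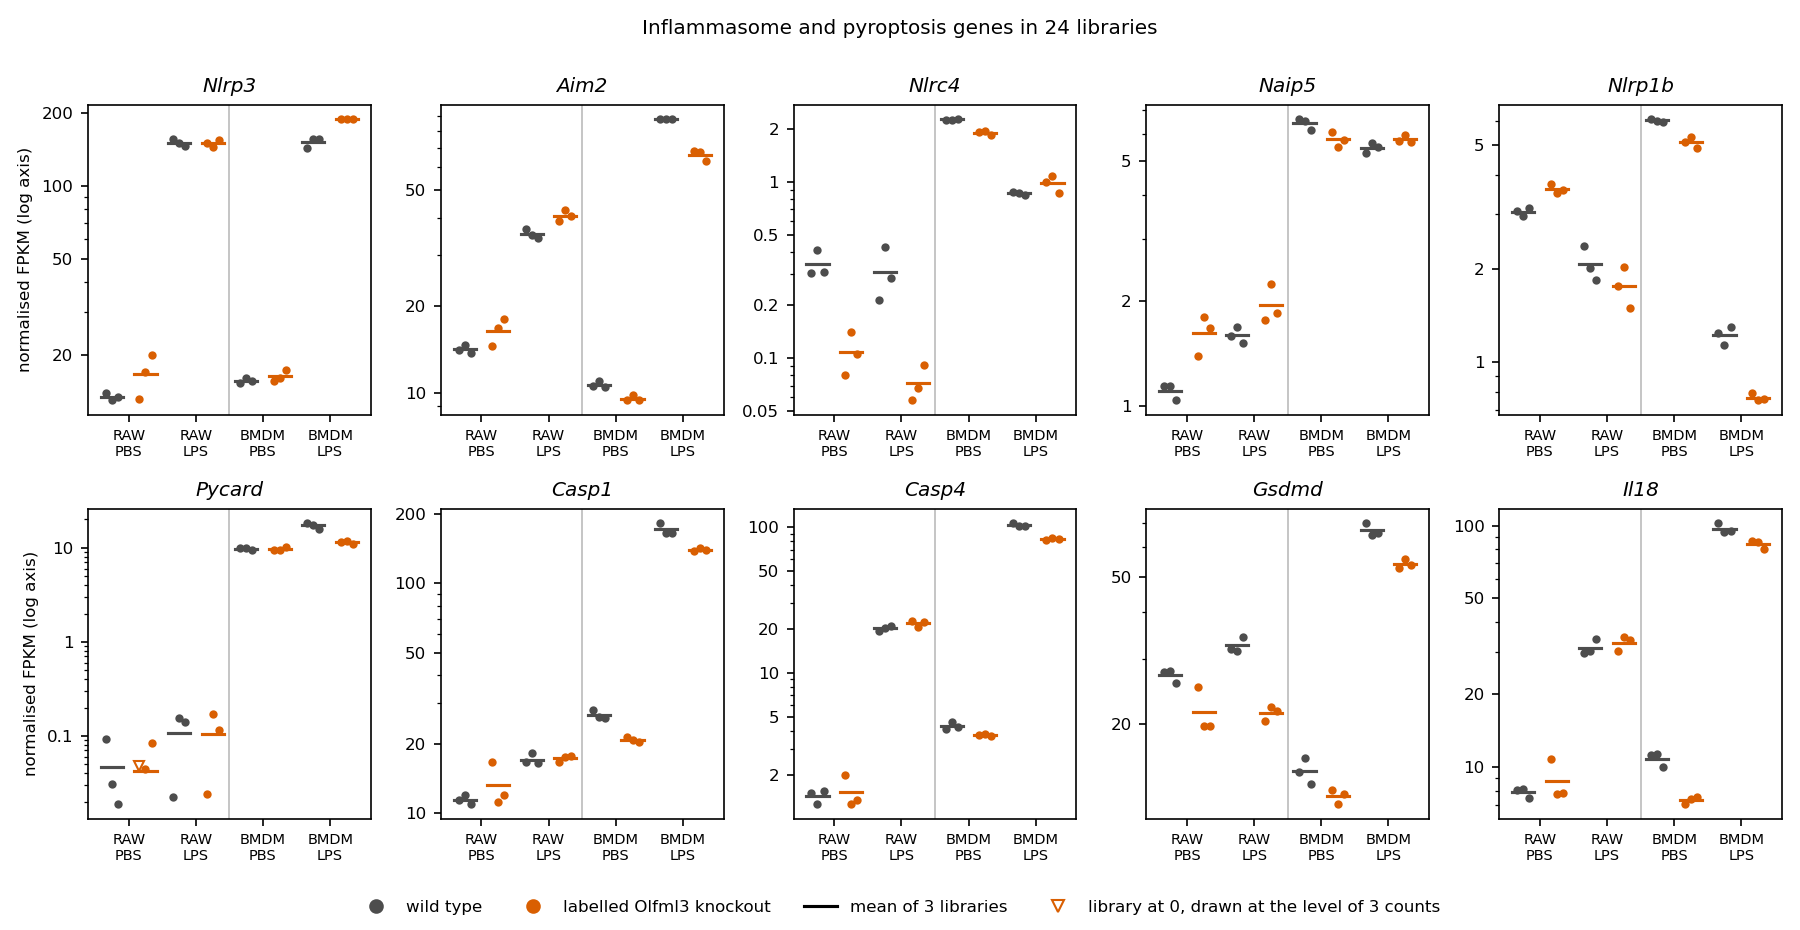
Normalised FPKM (log axis, a separate scale for each gene) of the 10 inflammasome and pyroptosis genes in each of the 24 libraries, with wild type in grey and labelled knockout in orange and a bar at the mean of 3 libraries. Pycard sat at or below 0.172 in every RAW264.7 library and at or above 9.49 in every BMDM library. The triangle marks the RAW264.7 library with 0 counts, drawn at the level of 3 counts without the scaling for composition (0.0479 FPKM).

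Pycard was almost without reads in RAW264.7. The 12 RAW264.7 libraries held 46 Pycard counts among 168463276 in all, or 0.273 CPM, and the 12 BMDM libraries 11557 among 256479871, or 45.1 CPM. By group the RAW264.7 counts were 5, 2 and 1 in wild type with PBS, 0, 3 and 5 in the labelled knockout with PBS, 1, 8 and 7 in wild type with LPS, and 1, 8 and 5 in the labelled knockout with LPS. The groups overlapped, and the gene was left out of the RAW264.7 tests by the filter on low counts. The single library at 0 allows up to 3 counts, or 0.0479 FPKM without the scaling for composition. Of the 75-base windows of its exons, 11 percent also occur in Gm45205, so that some of these few reads could belong to that gene. The tables were normalised separately, and the gap between the cell types was not tested. The other 9 genes had 173 counts (Nlrc4) to 50349 counts (Nlrp3) over the RAW264.7 libraries and all 10 passed the filter in BMDMs.

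In resting wild-type RAW264.7 the order of the levels was Gsdmd (27 ± 1.16 normalised FPKM, SD, n = 3), Aim2 (14.2 ± 0.543), Nlrp3 (13.4 ± 0.497), Casp1 (11.5), Il18 (7.89), Nlrp1b (3.05), Casp4 (1.43), Naip5 (1.1), Nlrc4 (0.343) and Pycard (0.0473). Only Aim2 and Nlrp3 overlapped among neighbours in that order. Resting wild-type BMDMs were ordered Casp1 (26.8 ± 1.14), Nlrp3 (15.6), Gsdmd (14.9), Il18 (10.8), Aim2 (10.7), Pycard (9.8), Naip5 (6.42), Nlrp1b (6.02), Casp4 (4.3) and Nlrc4 (2.27), where Nlrp3 overlapped Gsdmd and Il18 overlapped Aim2. With LPS the most abundant of the 10 was Nlrp3 in wild-type RAW264.7 (151 ± 4.22) and Casp1 in wild-type BMDMs (172 ± 10.1). Because these are bulk cultures, more cells expressing a gene and more RNA per cell cannot be told apart.

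LPS raised most of the set in wild-type BMDMs and fewer of its genes in wild-type RAW264.7, by edgeR's quasi-likelihood test in which a call needs an adjusted p below 0.05 and a change of at least 1.5-fold. In BMDMs 7 of 10 genes rose (Casp4, Nlrp3, Il18, Aim2, Casp1, Gsdmd and Pycard) and 2 fell (Nlrp1b and Nlrc4), where 25.1 percent of the 14057 genes tested rose and 30.9 percent fell, 56 percent in all. In RAW264.7 4 of the 9 tested rose (Casp4, Nlrp3, Il18 and Aim2) and none fell, where 14.6 percent of 13639 genes rose and 16.6 percent fell, 31.2 percent in all. Leaving out 1 library gave 4 to 6 members called in RAW264.7. Casp1 was then called higher in 3 of 6 fits and Nlrp1b lower in 1. DESeq2 and limma on log2(FPKM + 0.1) each called 5. Libraries with and without LPS were fully apart for 10 of 10 members in BMDMs and 8 of 9 in RAW264.7, where 80.7 and 67.7 percent of all genes were apart. On the deposited FPKM, which are not scaled for composition, 6 members lay above and 3 below in BMDMs, as Pycard overlapped. In RAW264.7 6 lay above and 1 below, as Gsdmd overlapped. The median log2 change of the members was 2.43 in BMDMs and 0.57 in RAW264.7, beside -0.073 and 0.008 over all genes tested. Scaling by library totals in place of TMM, the trimmed mean of M-values, moved the median of all BMDM genes to -0.845 and that of all RAW264.7 genes to -0.215, and the split of all BMDM calls from 3523 higher and 4342 lower to 1888 and 8226. For RAW264.7 the split went from 1994 and 2258 to 1444 and 3371. LPS changes are therefore given relative to the TMM scale. Under library totals the members called were 6 higher and 3 lower in BMDMs, where Pycard was no longer called and Naip5 (-1) was called lower, and 4 higher and 1 lower in RAW264.7, where Nlrp1b (-0.78) was added.

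**Figure D2:**
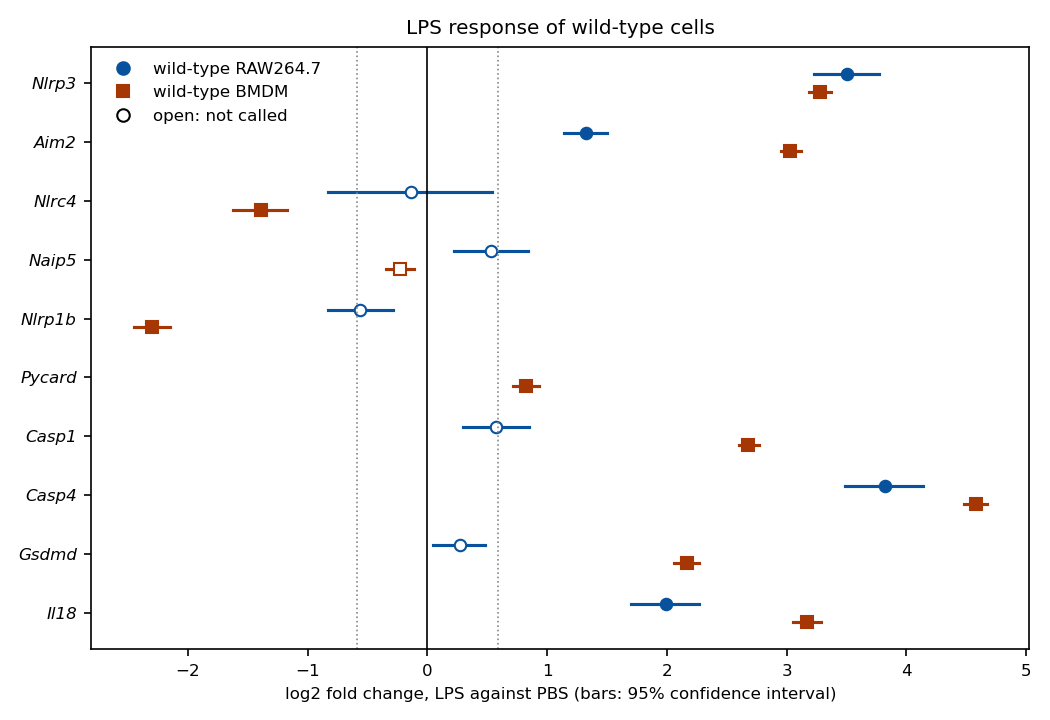
Log2 fold change with LPS in wild-type cells for each gene (points, with 95% confidence intervals), in RAW264.7 and BMDMs side by side. Casp4 and Nlrp3 had the largest increases in RAW264.7 (3.82 and 3.5), and in BMDMs Casp4 reached 4.58 while Nlrp1b and Nlrc4 lay below 0.

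Among the sensors, Nlrp3 responds to potassium efflux and many other signs of damage. In RAW264.7 wild type it stood at 13.9, 12.9 and 13.3 normalised FPKM with PBS and at 156, 151 and 147 with LPS. In BMDM wild type it stood at 15.2, 16 and 15.6 with PBS and at 143, 156 and 156 with LPS. Levels with and without LPS were far from overlapping in both cell types, and the log2 fold changes were close, 3.5 ± 0.13 (SE; 11.3-fold, adjusted p = 1.66e-10) in RAW264.7 and 3.28 ± 0.04 (9.73-fold, adjusted p = 1.4e-31) in BMDMs. The knockout BMDMs reached 190, 189 and 189 with LPS, above every wild-type library, a difference of 0.32 ± 0.04 (adjusted p = 6.11e-08) that is 1.25-fold and short of a call, with a genotype by LPS interaction of 0.26 (adjusted p = 0.0014). With PBS the knockout BMDMs held 15.5, 16 and 17.3, overlapping wild type. In labelled-knockout RAW264.7 the levels were 13.1, 16.9 and 19.9 with PBS and 150, 145 and 155 with LPS, both overlapping wild type. The PBS difference of 0.32 (adjusted p = 0.0425) became 0.46 (adjusted p = 2.98e-12) without replicate 1, whose 13.1 lay within the wild-type range. That library was singled out for its likeness to wild type, so the second value is not independent support for the first.

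Aim2 senses double-stranded DNA in the cytosol. Wild-type BMDMs held 10.6, 11 and 10.5 normalised FPKM with PBS and 87.7, 87.6 and 88.1 with LPS, and knockout BMDMs 9.44, 9.83 and 9.47 with PBS and 68.1, 67.6 and 63.2 with LPS. The knockout libraries lay below wild type under both treatments. The log2 difference was -0.16 with PBS (adjusted p = 0.0123) and -0.4 ± 0.04 with LPS (1.32-fold, adjusted p = 3.68e-10), neither reaching 1.5-fold, and the interaction was -0.24 (adjusted p = 0.00345). RAW264.7 wild type held 14.1, 14.7 and 13.7 with PBS and 36.7, 35.1 and 34.3 with LPS, a rise of 1.32 ± 0.08 on the log2 scale (2.5-fold, adjusted p = 4.87e-08) against 3.03 ± 0.04 (8.18-fold, adjusted p = 4.31e-31) in BMDMs. The labelled-knockout RAW264.7 libraries held 14.5, 16.8 and 18 with PBS, and with LPS they held 39.1, 42.6 and 40.6, above every wild-type library, with an adjusted p of 0.0555 and 0.0513 for the 2 differences of 0.21.

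Nlrc4 forms inflammasomes with the NAIP proteins, of which Naip5 binds bacterial flagellin. In RAW264.7 Nlrc4 rested on few reads: 21, 34 and 21 counts in wild type with PBS, 7, 12 and 8 in the labelled knockout with PBS, 12, 28 and 18 in wild type with LPS, and 3, 4 and 5 in the labelled knockout with LPS. Every labelled-knockout library lay below every wild-type library at the same treatment. The log2 difference was -1.64 ± 0.35 with PBS (95% interval -2.39 to -0.89, 3.11-fold lower, adjusted p = 0.00398) and -2.08 ± 0.41 with LPS (interval -2.97 to -1.2, 4.23-fold lower, adjusted p = 0.00143). BMDMs expressed more: wild type held 2.25, 2.26 and 2.29 normalised FPKM with PBS and 0.876, 0.869 and 0.841 with LPS, a fall of 1.39 ± 0.11 (log2 -1.39, 2.63-fold, adjusted p = 1.73e-12). In RAW264.7 wild type the LPS difference was -0.14 ± 0.31 (adjusted p = 0.746). Knockout BMDMs held 1.92, 1.95 and 1.85 with PBS, below wild type (-0.25, adjusted p = 0.0482), and 0.999, 1.09 and 0.873 with LPS, overlapping it, and the interaction was 0.46 (adjusted p = 0.0438).

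In RAW264.7 Naip5 was higher with LPS and in BMDMs lower, the latter by a value that turned when the counts of paralogues were added. RAW264.7 wild type held 1.14, 1.14 and 1.04 normalised FPKM with PBS and 1.59, 1.69 and 1.52 with LPS, a log2 difference of 0.53 (1.45-fold, adjusted p = 0.00749), and BMDM wild type held 6.62, 6.5 and 6.14 with PBS and 5.3, 5.63 and 5.49 with LPS, a difference of -0.23 (adjusted p = 0.000647). The gene shares 23.8 percent of its 75-base windows with other genes, 11.3 percent with Naip6 and 10.5 percent with Naip3. With all reads of Naip2 and Naip6 added, the BMDM value turned to 0.29 (adjusted p = 5.9e-07) and the RAW264.7 value became 0.83 (adjusted p = 0.000107). This sum also carries the paralogues' own response to LPS, so it cannot show what the shared reads do to Naip5. The sum also left out Naip3 and added Naip2, which was not among the genes sharing most windows with Naip5. Reads counted for Naip5 itself were lower with LPS in BMDMs under TMM (-0.23) and under library totals (-1.0). What part of these reads came from paralogues was not tested. Labelled-knockout RAW264.7 held 1.39, 1.8 and 1.67 with PBS, above every wild-type library (0.55 ± 0.14, 1.46-fold, adjusted p = 0.00938), and 1.76, 2.23 and 1.85 with LPS, also above (0.29, adjusted p = 0.0979). Without replicate 1 the PBS difference was 0.64 (adjusted p = 0.000275) and passed 1.5-fold. Knockout BMDMs held 6.08, 5.5 and 5.75 with PBS, below wild type (-0.15, adjusted p = 0.0461), and 5.72, 5.95 and 5.69 with LPS, above it (0.08, adjusted p = 0.343).

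Nlrp1b, the mouse sensor cleaved by anthrax lethal factor, moved against most of the set. Wild-type BMDMs held 6.1, 6 and 5.97 normalised FPKM with PBS and 1.24, 1.13 and 1.29 with LPS, and knockout BMDMs 5.14, 5.34 and 4.92 with PBS and 0.789, 0.749 and 0.756 with LPS. The 4 groups did not overlap. It fell with LPS by 2.3 on the log2 scale (SE 0.07, 4.93-fold, adjusted p = 3.33e-22) and was the only member called between knockout and wild-type BMDMs, at -0.67 ± 0.11 with LPS (interval -0.9 to -0.45, 1.6-fold lower, adjusted p = 1.23e-05). With PBS the difference was -0.23 (adjusted p = 0.00177), and the interaction of -0.45 (adjusted p = 0.00885) was short of 1.5-fold. Under library totals the LPS difference between genotypes was -0.53, and with all reads of its paralogue Nlrp1a added it was -0.32, neither of them called. Nlrp1b shares only 0.7 percent of its 75-base windows with Nlrp1a. The sum therefore adds Nlrp1a's own reads and cannot show what shared reads do to Nlrp1b. In RAW264.7 wild type the gene went from 3.07, 2.96 and 3.13 to 2.37, 2.01 and 1.84 with LPS (-0.56 ± 0.12, 1.47-fold, adjusted p = 0.00223). The labelled knockout held 3.75, 3.51 and 3.58 with PBS, above wild type (0.24, adjusted p = 0.108), and 1.76, 2.03 and 1.49 with LPS, overlapping it (-0.23, adjusted p = 0.143).

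The adaptor Pycard showed the largest interaction of the set in BMDMs. Wild type held 9.84, 10 and 9.54 normalised FPKM with PBS and 18.5, 17.4 and 15.9 with LPS, and the knockout held 9.57, 9.49 and 10.2 with PBS and 11.5, 11.9 and 11.1 with LPS. The genotypes overlapped with PBS (-0.01, 95% interval -0.12 to 0.1) and were apart with LPS, where the knockout was lower by -0.58 ± 0.06 on the log2 scale (interval -0.7 to -0.47, adjusted p = 1.25e-09), just under the 1.5-fold that a call needs. The interaction was -0.58 ± 0.08 (1.49-fold, adjusted p = 1.93e-06). The rise with LPS in wild type, 0.82 ± 0.05 (1.76-fold, adjusted p = 3.02e-14), depended on the scaling and became 0.05 (adjusted p = 0.427) under library totals. On the deposited FPKM, which carry no composition scaling, wild type held 12.49, 12.65 and 12.04 with PBS and 13.69, 12.9 and 11.78 with LPS, and the knockout 12.49, 12.35 and 13.33 with PBS and 9.42, 9.74 and 9.11 with LPS, so that on that scale too the knockout lay below wild type with LPS and overlapped it with PBS.

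**Figure D3:**
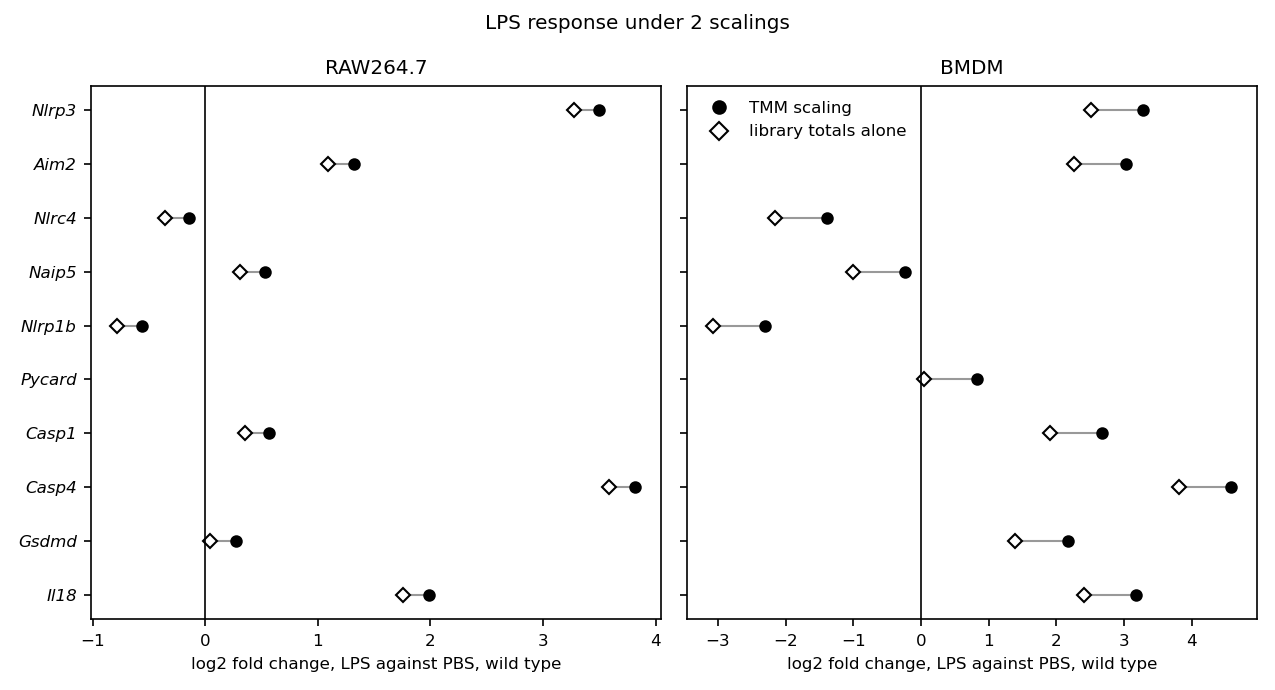
Log2 fold change with LPS against PBS in wild-type cells (horizontal) for each gene, under TMM scaling (filled points) and under library totals (open diamonds), in RAW264.7 and BMDMs, each with its own axis range. Every diamond lies to the left of its point, and Pycard in BMDMs moved from 0.82 to 0.05.

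Casp4 had the largest fold change with LPS among the members tested in each cell type. For Casp4, BMDM wild type held 4.09, 4.58 and 4.24 normalised FPKM with PBS and 107, 101 and 101 with LPS (4.58 ± 0.05, 23.9-fold, adjusted p = 4.68e-34), and RAW264.7 wild type 1.5, 1.25 and 1.55 with PBS and 19.3, 20.3 and 21 with LPS (3.82 ± 0.15, 14.1-fold, adjusted p = 4.03e-10). For Casp1, BMDM wild type held 28.1, 26.2 and 26 with PBS and 184, 166 and 166 with LPS (2.68 ± 0.04, 6.43-fold, adjusted p = 1.7e-29), while RAW264.7 wild type held 11.4, 12 and 10.9 with PBS and 16.6, 18.2 and 16.5 with LPS (0.57 ± 0.13, 1.49-fold, adjusted p = 0.00223). The difference between the cell types was not tested. Knockout BMDMs held less of both caspases in every library: Casp1 was at 21.4, 20.8 and 20.3 with PBS (-0.36 ± 0.04, adjusted p = 3.26e-07) and 138, 143 and 140 with LPS (-0.3, adjusted p = 4.07e-07). Casp4 in knockout BMDMs was at 3.72, 3.78 and 3.69 with PBS (-0.21, adjusted p = 0.0163) and 81, 84.2 and 82.3 with LPS (-0.32, 1.25-fold, adjusted p = 3.64e-08). All 4 differences were under 1.5-fold.

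In RAW264.7 the caspases did not separate the genotypes. Casp1 was at 16.6, 11.2 and 12 in the labelled knockout with PBS and 16.6, 17.6 and 17.7 with LPS, and Casp4 at 1.98, 1.25 and 1.34 with PBS and 22.8, 20.7 and 22.4 with LPS, each overlapping wild type. With LPS the differences were 0.02 for Casp1 (95% interval -0.25 to 0.29) and 0.12 for Casp4 (interval -0.15 to 0.4). The high PBS values of both genes were in replicate 1, and without it the PBS differences were 0.01 and -0.14. The 2 genes lie side by side on chromosome 9, where 15 other genes are annotated within 1 Mb. Of these 4 were tested in RAW264.7 and 5 in BMDMs, and in the knockout BMDMs with LPS only the caspase gene Casp12 was called (-0.96), the median of the 5 being 0.01.

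Gsdmd, the pore-forming substrate of both caspases, was the member called lower in RAW264.7 besides Nlrc4. Wild-type RAW264.7 held 27.6, 27.8 and 25.7 normalised FPKM with PBS and 31.8, 31.5 and 34.4 with LPS, and the labelled knockout 25.2, 19.7 and 19.7 with PBS and 20.3, 22.2 and 21.6 with LPS. The genotypes did not overlap under either treatment on this scale. On the deposited FPKM the PBS libraries overlapped, at 27.49 to 29.74 in wild type and 21.55 to 27.6 in the labelled knockout, while the LPS libraries stayed apart. The difference was -0.61 ± 0.1 with LPS (interval -0.82 to -0.39, 1.52-fold lower, adjusted p = 0.000496) and -0.33 ± 0.1 with PBS (1.25-fold, adjusted p = 0.0203), or -0.46 (adjusted p = 2.91e-09) without replicate 1, whose 25.2 was nearest to wild type. The LPS call lay at the edge of 1.5-fold: at -0.57 it was lost without wild-type LPS replicate 3 or labelled-knockout LPS replicate 1, and at -0.58 under library totals. BMDM wild type held 14.8, 16.2 and 13.7 with PBS and 70, 64.7 and 65.5 with LPS (2.17 ± 0.05, 4.49-fold, adjusted p = 4.52e-25), where RAW264.7 wild type differed by 0.27 (1.2-fold, adjusted p = 0.04). Knockout BMDMs held 13.2, 12.1 and 12.9 with PBS (-0.23, adjusted p = 0.00479) and 52.8, 55.7 and 53.8 with LPS (-0.3, adjusted p = 7.72e-06), below wild type throughout and under 1.5-fold.

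Il18, the cytokine precursor that caspase-1 matures, was lower in the knockout BMDMs. BMDM wild type held 11.2, 11.3 and 10 normalised FPKM with PBS and 103, 93.9 and 94.7 with LPS, and the knockout 7.01, 7.4 and 7.56 with PBS and 86.1, 85.8 and 80.3 with LPS. On this scale no knockout library reached the wild-type range, while on the deposited FPKM the LPS libraries overlapped, at 76.5, 69.45 and 70.2 in wild type and 70.24, 70.06 and 65.88 in the knockout. The log2 difference was -0.56 ± 0.08 with PBS (interval -0.73 to -0.4, 1.48-fold, adjusted p = 4.4e-06) and -0.21 with LPS (adjusted p = 0.000955; under library totals -0.07, adjusted p = 0.288), with an interaction of 0.35 (adjusted p = 0.00724), and the PBS value passed 1.5-fold only without wild-type PBS replicate 3 (-0.62). LPS raised it 9-fold in wild-type BMDMs (3.17 ± 0.06, adjusted p = 8.2e-28) and 3.96-fold in wild-type RAW264.7 (1.99 ± 0.13, adjusted p = 6.57e-08), from 8.06, 8.15 and 7.45 to 29.6, 30.3 and 33.9. Labelled-knockout RAW264.7 held 10.8, 7.75 and 7.85 with PBS and 30.2, 34.5 and 33.6 with LPS, overlapping wild type under both.

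**Figure D4:**
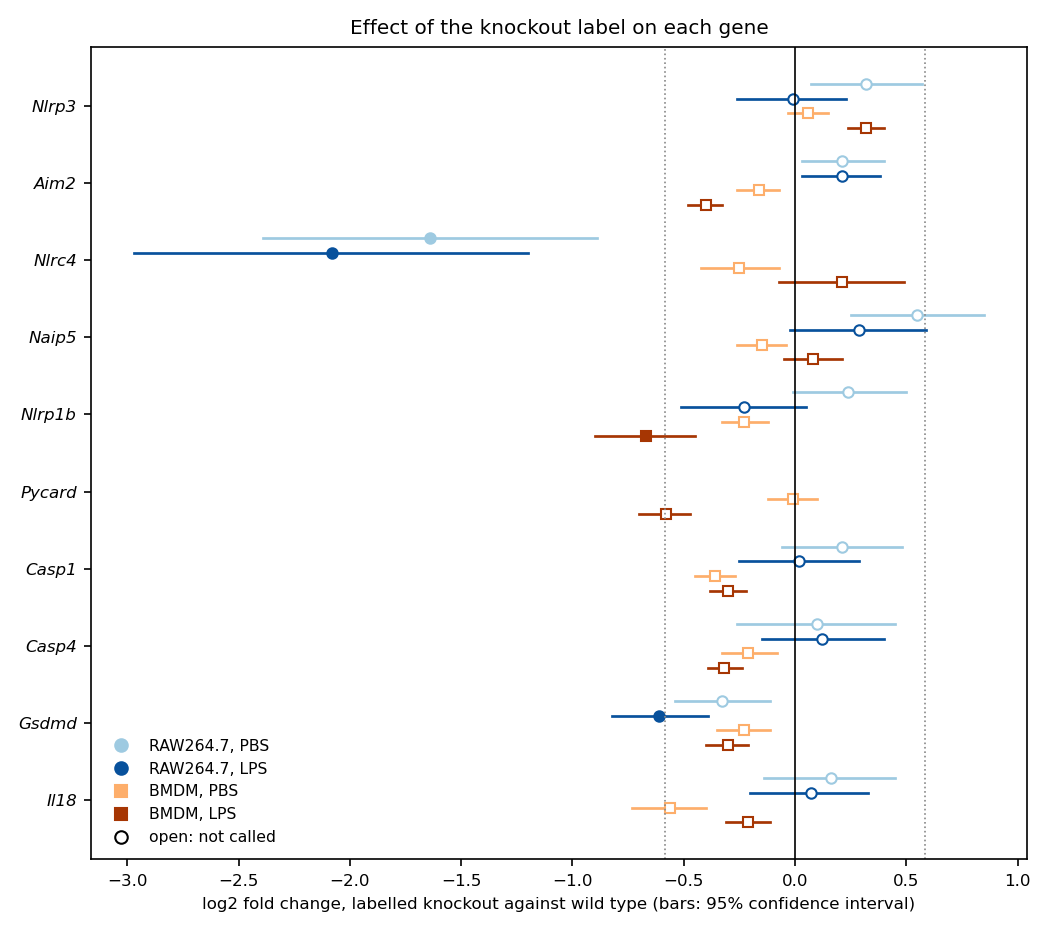
Log2 fold change of labelled knockout against wild type for each gene (points, with 95% confidence intervals) in 4 settings, with calls filled and dotted lines at 1.5-fold. Nlrc4 lay lowest in RAW264.7 (-1.64 with PBS and -2.08 with LPS), and most BMDM points lay between 0 and -0.6.

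Set side by side, the genotype differences of the 10 genes were small for the most part. In BMDMs with PBS no member was called by edgeR, DESeq2 or limma, where 3.77 percent of all genes were called (1.8 percent higher and 1.97 percent lower), although 8 of 10 had an adjusted p below 0.05, all of them lower in the knockout, where 16.3 percent of all genes did, and the same 8 an unadjusted p below 0.05, where 26.7 percent did. Under library totals 4 of 10 had an adjusted p below 0.05, all lower. With LPS 1 of 10 was called (Nlrp1b, lower), where 4.5 percent of all genes were called higher, 4.6 percent lower and 9.1 percent in either direction, and 7 were lower and 1 higher by adjusted p alone, where 34.7 percent of all genes passed. Under library totals it was 6 lower and 3 higher, as Nlrc4 (0.35) and Naip5 (0.22) passed and Il18 (-0.07) did not. For the interaction none was called by edgeR or limma and 1 by DESeq2, where 5.68 percent of all genes were called (3.14 percent higher and 2.54 percent lower), and 7 had an unadjusted p below 0.05, where 29.4 percent did. The members' median difference in BMDMs was -0.22 with PBS and -0.3 with LPS, beside -0.003 and 0.008 over all genes, and under library totals that with LPS was -0.16 beside 0.152. In RAW264.7 1 of 9 was called with PBS (Nlrc4, lower), where 13.9 percent of all genes were called higher, 8.92 percent lower and 22.8 percent in either direction, and 2 of 9 with LPS (Nlrc4 and Gsdmd, lower), where 17.1 percent were called higher, 15.8 percent lower and 33 percent in either direction. For the RAW264.7 interaction none was called by edgeR, DESeq2 or limma and 1 had an unadjusted p below 0.05 (14.6 percent of all genes did), where 3.23 percent of all genes were called (1.34 percent higher and 1.89 percent lower). Without labelled-knockout PBS replicate 1 the count with PBS was 2 of 9, as Naip5 was added, while genes called overall went from 3116 to 5264. The part that the lower macrophage marker sum of labelled-knockout RAW264.7 has in its differences was not tested.

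Libraries of the 2 genotypes were fully apart for 8 of 10 members in BMDMs with PBS, all lower in the knockout, and for 9 of 10 with LPS, 7 of them lower and 2 (Nlrp3 and Naip5) higher, where 35.3 and 42 percent of all genes were apart. In RAW264.7 it was 4 of 9 with PBS, 2 in each direction, and 4 of 9 with LPS, 2 in each direction, where 41.2 and 70 percent of all genes were apart. On the deposited FPKM the members apart in BMDMs were 7 lower with PBS (Naip5 overlapped), and 6 lower and 3 higher with LPS (Il18 overlapped and Nlrc4 was higher), and in RAW264.7 3 higher and 1 lower with PBS and 3 higher and 2 lower with LPS.

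The IL-1 family list held 10 genes. For this list and those below, the counts stand beside these shares of all genes called in either direction. Between genotypes they were 3.77 percent in BMDMs with PBS and 9.1 with LPS, and 22.8 and 33 percent in RAW264.7. For LPS in wild type they were 56 percent in BMDMs and 31.2 in RAW264.7, and for the interaction 5.68 and 3.23. Il1b, which encodes pro-IL-1beta, stood at 1004, 983 and 942 normalised FPKM in wild-type BMDMs with LPS and at 1977, 1995 and 1930 in the knockout, with no overlap. It was 2.01-fold higher (1.01 ± 0.03, adjusted p = 1.46e-19), with an interaction of 0.86 (adjusted p = 2.54e-05), while with PBS it was at 0.814 to 1.13 in wild type and 1 to 1.23 in the knockout. Il1a was 0.4 higher in the knockout BMDMs with LPS (adjusted p = 8.2e-09) and Il1rn, the receptor antagonist, 0.51 lower (log2 -0.51, adjusted p = 4.55e-12), both under 1.5-fold. Of the 8 tested in BMDMs with LPS, 1 rose (Il1b) and 2 fell, Il18rap, a subunit of the IL-18 receptor (-2.55), and Il18bp, the secreted IL-18 inhibitor (-1.07), and with PBS 2 fell, Il1r1 (-1.54) and Il18bp (-1.27). In RAW264.7 with LPS Il1b stood at 851, 891 and 865 in wild type and at 829, 801 and 824 in the labelled knockout, a difference of -0.09 (95% interval -0.43 to 0.25, adjusted p = 0.652), while Il1rn went from 61.8 to 63.4 in wild type to 14.2 to 17.8 in the labelled knockout (-1.96, adjusted p = 1.07e-07). With PBS Il1rn was lower as well (-3.53, adjusted p = 1.97e-08) and was the only one of 7 called, and with LPS 3 of 7 fell, Il33 (-0.97) among them, and 1 rose, Il18bp (0.98). LPS in wild type raised 7 of 7 in RAW264.7, led by Il1b (11.33) and Il1a (11.28) with Il1rn at 4.31, and 7 of 8 in BMDMs, led by Il1b (9.93), with Il1a at 8.97 and Il1rn at 5.39. By library totals 7 of 7 and 6 of 8 were called higher. Il33 had 0 counts in wild-type BMDMs with PBS and 175 with LPS, and with it at the bound of 3 counts over the group the list's median stayed at 4.72.

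Guanylate-binding proteins coat bacterial LPS and feed it to caspase-11, and their list here also held the related GTPase genes Irgm1, Irgm2 and Gm12250. The list had medians below 0 between labelled knockout and wild type in both cell types with PBS and with LPS. Of 7 genes 5 were called lower in BMDMs with PBS, led by Gm12250 (-1.99) and Irgm1 (-1.61), and 1 with LPS (Irgm1, -0.77), with medians of -1.05 and -0.46. Among all genes 1.97 percent were called lower there with PBS and 4.6 percent with LPS. In labelled-knockout RAW264.7 4 were called lower with PBS and 7 with LPS, the latter led by Gm12250 (-3.51) and Gbp2 (-2.19), with medians of -0.7 and -0.97. Among all genes 8.92 and 15.8 percent were called lower. The RAW264.7 PBS values rested on few reads: Gbp5 had 8 counts over the wild-type libraries and 0 over the labelled-knockout libraries, and Gbp7 had 29 and 2. With Gbp5 at the bound of 3 counts over the group the median stayed at -0.7. LPS raised all 7 in both wild types, led by Gbp2 (10.16) and Gbp5 (8.69) in RAW264.7 and by Gbp5 (8.2) and Gbp2 (6.48) in BMDMs. Among all genes 14.6 percent rose in RAW264.7 and 25.1 percent in BMDMs. Interaction calls were 3 higher in BMDMs, led by Gm12250 (1.41) and Irgm1 (0.84), and 1 in each direction in RAW264.7, Gbp7 (3.08) and Gm12250 (-4.43), the latter lost without labelled-knockout PBS replicate 1 (-3.54, adjusted p = 0.0922).

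Of 10 genes that act on NLRP3, the kinase Nek7, which binds the sensor, was at 25.1 normalised FPKM in wild-type BMDMs with PBS and 24.8 in the knockout, and at 38.8 and 37.1 with LPS, with differences of -0.02 and -0.07 (adjusted p = 0.837 and 0.132). In RAW264.7 it was 0.46 higher in the labelled knockout with PBS (1.38-fold, adjusted p = 0.00396) and 0.14 with LPS (adjusted p = 0.251). Without labelled-knockout PBS replicate 1 the PBS difference was 0.59 and was called. LPS lowered Nek7 in wild-type RAW264.7 (-0.8, 1.74-fold), while in wild-type BMDMs its LPS difference was 0.63 (1.55-fold, called) under TMM and -0.14 under library totals, so that its direction there turned with the scaling. The list had 1 lower call in knockout BMDMs with PBS (Trim30a, -1.36) and none with LPS, 2 lower in labelled-knockout RAW264.7 with PBS (Trim30a, -1.26, and Card19, -0.8), and 1 higher (Tnfaip3, 1.1) and 4 lower (led by Card19, -1.21, and Trim30a, -0.9) with LPS. Among all genes 3.77 and 9.1 percent were called in BMDMs with PBS and LPS, and 22.8 and 33 percent in RAW264.7. With LPS in wild type Tnfaip3, a brake on NF-kappaB signalling, and Trim30a rose (4.86 and 5.14 in RAW264.7, 5.41 and 3.52 in BMDMs), and P2rx7, the ATP-gated channel upstream of NLRP3, fell (-1.47 and -1.73), together with Panx1 (-1.2) in RAW264.7 and Kcnk6 (-2.08) in BMDMs. LPS calls of the list in wild-type BMDMs were 4 higher and 4 lower under TMM and 2 and 5 under library totals. In wild-type RAW264.7 they were 3 and 4, and 3 and 5. Interaction calls were Trim30a (1.02) in BMDMs and Pstpip1 (-0.82) in RAW264.7.

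Of 13 other sensors, 7 were tested in RAW264.7 and 11 in BMDMs. Labelled-knockout RAW264.7 had 2 higher under both treatments, Nlrx1 (1.06 with PBS and 0.73 with LPS) and Naip6 (1.03 and 1.02), a paralogue that shares reads with Naip5. Knockout BMDMs had 1 lower with PBS (Nlrc5, -0.92) and 3 with LPS, led by Nlrc3 (-0.91) and Nlrp10 (-0.8). LPS in wild type raised 3 and lowered 2 in RAW264.7, with Nod2 (4.52) and Nlrc5 (2.37) against Nlrp10 (-3.24) and Nlrc3 (-0.9), and raised 5 and lowered 3 in BMDMs, with Nod1 (4.28) and Nlrc5 (3.87) against Naip1 and Nlrc3 (-2.22). These LPS counts moved with the scaling, to 3 higher and 3 lower in RAW264.7 and 4 and 5 in BMDMs under library totals. Naip1 had only 32 counts over the 3 wild-type BMDM libraries with PBS and 2 with LPS.

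Of 11 genes of other death pathways, labelled-knockout RAW264.7 had 1 lower with PBS, Ninj1 (-1.04), whose protein ruptures the membrane after gasdermin pores form, and 4 lower with LPS, led by Ninj1 (-1.75) and Mlkl (-1.26), the effector of necroptosis. Ninj1 held 49.9 to 51.3 normalised FPKM in wild-type RAW264.7 with PBS and 19.3 to 33.4 in the labelled knockout, and 71.5 to 76.6 against 20.8 to 23.5 with LPS. Knockout BMDMs had 1 lower with PBS (Mlkl, -0.64) and 2 with LPS (Casp12, -0.96, and Ripk1, -0.75), and Ninj1 there differed by -0.09 with LPS (adjusted p = 0.0809). LPS in wild-type BMDMs raised 6 of 9, led by Casp12 (4.82) and Mlkl (3.48), and lowered Gsdme (-1.25), and in wild-type RAW264.7 it raised Mlkl (1.63) and Casp8 (0.69). Scaled by library totals, LPS calls of this list were 4 higher and 2 lower in BMDMs and 1 higher and 3 lower in RAW264.7. The RAW264.7 interaction had 4 lower calls, led by Mlkl (-0.77) and Casp8 (-0.7), and that of BMDMs 1 (Ripk1, -0.66).

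**Figure D5:**
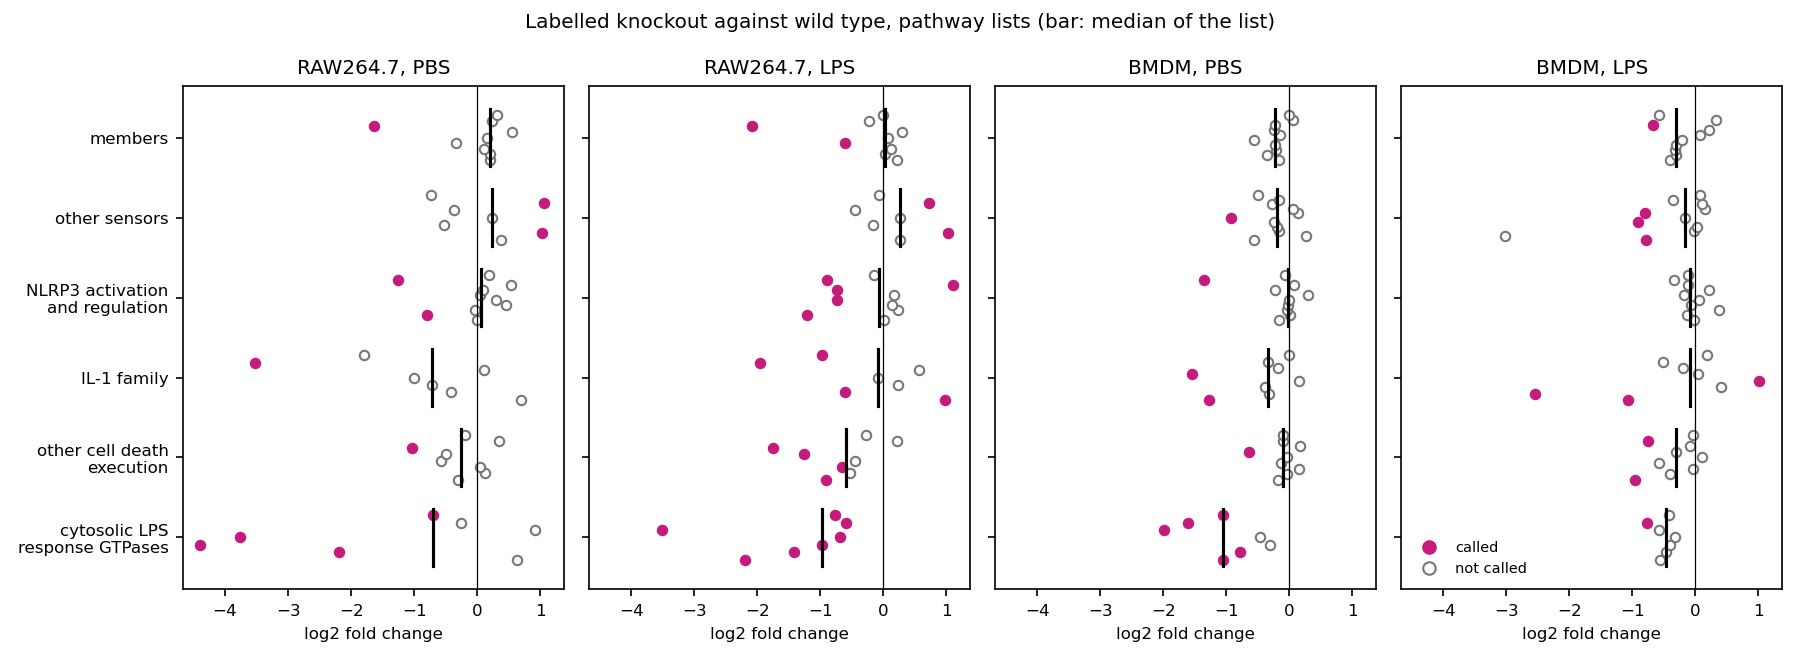
Log2 fold change of labelled knockout against wild type for every tested gene of the member set and the 5 wider lists in 4 settings, with calls filled and a bar at each list's median. The GTPase medians lay at -0.7 and -0.97 in RAW264.7 and at -1.05 and -0.46 in BMDMs, and the member medians at 0.21, 0.02, -0.22 and -0.3.

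The genes whose 6 group differences from wild type with PBS were most like those of a member were named among 9401 genes with a mean of at least 1 normalised FPKM in both tables, by the root mean square log2 difference. For Nlrp3 they were Zc3h12a (0.25), Trim21 (0.3) and Nfkb1 (0.34), and for Casp4 Gm13822 (0.37), Ripk2 (0.43) and Enpp4 (0.45). Casp1 was nearest to Arel1 (0.15), Slc25a22 (0.16) and Rnf31 (0.16), Il18 to Parp12 (0.21), Slfn9 (0.22) and Tent4a (0.24), and Aim2 to Hk2 (0.1), Usp25 (0.16) and Tor1aip2 (0.21). Naip5 was nearest to Rybp (0.09) and Gsdmd to Svbp (0.12). Nlrc4 and Pycard were below the level needed in RAW264.7.

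The promoter windows of the members were searched for the NF-kappaB consensus, since LPS signals through that factor, and the stretches that hold a match are shown. Windows of 250 bases before to 50 after an annotated start (RefSeq, GRCm38.p6) were found for 9 of the 10 members, and Gsdmd had none. The consensus, searched on both strands, occurred in 8.46 percent of all 32851 windows and in windows of 3 members, Nlrp3, Casp4 and Naip5. The stretches below carry the match in capitals, are written in the direction of the gene, and lie at chr11:59541373-59541402 (plus strand, match starting at -186 from the start site, in 1 of the 2 Nlrp3 windows), at chr9:5308747-5308776 and chr9:5308800-5308829 (plus strand, matches at -92 and -39 of the upstream Casp4 start) and at chr13:100247535-100247564 (minus strand, match at -218).
Nlrp3: ggcttctgcaGGGAACCCCCgggaattctg
Casp4, first match: tgagttacagGGGATTTCCCcacagcagtt
Casp4, second match: aacatctcctGGAAGTCCCCgcctccctat
Naip5: ccccagtacaGGGGAACTCCagggacaaga
The first Casp4 match overlaps another that begins 1 base earlier, and the second reads as the consensus on the opposite strand. The interferon-stimulated response element and the gamma-activated sequence TTCNNNGAA, searched on both strands and present in 3.44 and 8.3 percent of all windows, occurred in no member window. Of the members with a match, Nlrp3 and Casp4 had the 2 largest increases with LPS in both cell types, while Naip5 did not pass the call in either. Without a match in their windows, Il18 and Aim2 rose in both cell types and Casp1 and Pycard in BMDMs. A match describes letters in a window and is not a measured binding site.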

How the data were processed

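RNA-seq counts and FPKM of 24 mouse libraries were used, 12 per cell type, in 8 groups of 3. The authors deposited, for each cell type, a table of raw read counts per gene and of FPKM, with no scaling for composition. FPKM recomputed from the counts lay within 1 percent of the deposited FPKM for 99.9 percent (RAW264.7) and 99.5 percent (BMDMs) of values over 50 counts. No source used here names the aligner or counter, and the submitters' processing notes name mm10. Gene starts in the tables matched GRCm38 for 2.8 percent of 52073 shared identifiers, so no coordinates from the tables are printed.

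Counts were tested with edgeR 4.0.16 (quasi-likelihood, TMM, filterByExpr with a minimum count of 10, Benjamini-Hochberg adjustment over 13639 or 14057 genes), 1 fit per cell type over 12 libraries, two-sided. The study's limma test was run as an alternative on log2(FPKM + 0.1) and log2(FPKM + 1) (limma 3.58.1), because FPKM move with composition, as was DESeq2 1.42.0. The edgeR, DESeq2 and limma fits were tested on simulated counts, in each cell type for knockout against wild type with PBS alone. Normalised FPKM are counts per exon length and TMM-scaled library size, on the FPKM scale. Tables were normalised separately. Other alternatives were library totals, no filter, adjusted p alone, only the 2 groups compared, a replicate block, paralogue reads added, and leaving out each library. For paralogue reads, all counts of Naip2 and Naip6 were added to Naip5, and those of Nlrp1a to Nlrp1b. The members and lists were chosen with earlier results of these data known. All 10 members were named, with Il1b, Il1a, Il1rn and Nek7, and for each comparison and list the 2 called genes with the largest fold in each direction. Some genes that this rule names are not reported here.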

Additional observations from a re-analysis of the deposited data

Results flagged for a closer look

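Some members had opposite signs in the 2 cell types. On the TMM scale every library of one genotype or treatment lay on one side in RAW264.7 and on the other in BMDMs. The differences between cell types were not tested, since the tables were normalised separately. Naip5 in labelled knockout against wild type with PBS was 0.55 in RAW264.7 and -0.15 in BMDMs, and with LPS against PBS in wild type it was 0.53 and -0.23, although with paralogue reads added it was 0.83 and 0.29, the same sign in both. Nlrp1b in labelled knockout against wild type with PBS was 0.24 in RAW264.7 (edgeR, adjusted p = 0.108) and -0.23 in BMDMs (adjusted p = 0.00177). Aim2 in labelled knockout against wild type with LPS was 0.21 in RAW264.7 (edgeR, adjusted p = 0.0513) and -0.4 in BMDMs (adjusted p = 3.68e-10). Within BMDMs, Naip5 was -0.15 in the knockout with PBS and 0.08 with LPS, and the interaction itself was 0.23 (edgeR, adjusted p = 0.0423). Groups of 3 libraries were not tested for outlying libraries.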

How the results depend on the processing

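Over the members, 539 of 605 log2 fold changes kept their direction and side of the threshold under the other settings, 40 became called, 12 lost a call and 14 turned sign, and of 570 with a library left out 530, 13, 2 and 25 did. The 605 include adjusted p alone, which is the main fit without the fold threshold. That setting can add calls but cannot turn a sign or lose a call. The cause of the other changes was not tested. Genes called in RAW264.7 with PBS numbered 1474 by limma on log2(FPKM + 1), 6005 by adjusted p alone and 1567 with only the 2 groups fitted, and by adjusted p alone 7459 in RAW264.7 with LPS and 6607 for LPS in wild-type RAW264.7. In BMDMs limma on log2(FPKM + 1) and adjusted p alone gave 256 and 2290 with PBS, 439 and 4881 with LPS, and 402 and 2697 for the interaction. Members called in RAW264.7 with PBS were 0 by limma on log2(FPKM + 1), 2 under library totals and 4 by adjusted p alone. With LPS they were 1 by limma on log2(FPKM + 0.1), 0 on log2(FPKM + 1) and 1 under library totals. For LPS in wild-type RAW264.7 adjusted p alone gave 8. In BMDMs members called by adjusted p alone were 8 with PBS, 8 with LPS and 7 for the interaction, and with LPS they were 2 by DESeq2 and 0 by both limma settings and under library totals, and 1 by DESeq2 for the interaction. Sign turned for Naip5 with LPS in wild-type BMDMs (0.29 with paralogue reads added) and for the following. In RAW264.7 with LPS, Casp1 was -0.01 without the filter, and Nlrp3 was 0.02 by limma on log2(FPKM + 0.1), 0.01 on log2(FPKM + 1), 0.02 under library totals and 0.00 with only the 2 groups. For the RAW264.7 interaction Aim2 was 0.01 by DESeq2 and Nlrc4 0.01 by limma on log2(FPKM + 1), from -0.44. In BMDMs with PBS, Pycard was 0.04, 0.03 and 0.04 by the limma settings and library totals, and for the BMDM interaction Gsdmd was 0.02, 0.02 and 0.03.

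Leaving out 1 library gave 1999 to 5264 genes called in RAW264.7 with PBS and 321 to 888 for its interaction, the highest without labelled-knockout PBS replicate 1. Without that library, an alternative added after seeing the data, the interaction of Nlrp3 in RAW264.7 was -0.48 (adjusted p = 1.97e-09) and members called in it stayed at 0. The lists then had, higher and lower, 1 and 1 (IL-1 family), 2 and 2 (NLRP3), 0 and 4 (GTPases), 0 and 2 (cell death) and 2 and 0 (sensors) with PBS, and for the interaction 1 and 0, 0 and 2, 1 and 0, 0 and 4, and 0 and 0. Members called ranged from 1 to 2 in RAW264.7 with PBS, 1 to 2 with LPS, 0 to 1 in BMDMs with PBS, 1 to 2 with LPS and 0 to 1 for the BMDM interaction, where Pycard ranged from -0.64 to -0.53. For LPS in wild-type RAW264.7 members called ranged from 4 to 6. In BMDMs with LPS Pycard was called without wild-type replicate 3 (-0.63) or knockout replicate 2 (-0.61). Ranges that crossed 0 in RAW264.7 were, with PBS, Casp4 -0.14 to 0.22 and Il18 -0.02 to 0.24, with LPS, Casp1 -0.01 to 0.06 and Nlrp3 -0.04 to 0.01, for LPS in wild type, Nlrc4 -0.46 to 0.06, and for the interaction, Casp1 -0.29 to 0.00, Casp4 -0.09 to 0.26, Aim2 -0.09 to 0.07 and Il18 -0.17 to 0.08. In BMDMs with PBS Pycard ranged from -0.04 to 0.02. Over all groups replicate numbers showed no pairing (median correlation of same-numbered libraries -0.002 in RAW264.7 and -0.003 in BMDMs). Between wild-type and labelled-knockout RAW264.7 with PBS it was 0.125, 0.048 and 0.102 for the same number and -0.103 to 0.057 for different numbers. A replicate block gave 3096, 4454, 4200 and 391 genes in RAW264.7 (PBS, LPS, LPS in wild type, interaction) and 518, 1274, 7834 and 782 in BMDMs. Members called were then 1, 2, 4 and 0 in RAW264.7 and 0, 1, 9 and 0 in BMDMs. Depth limits Nlrc4 and Pycard in RAW264.7, at no more than 34 and 8 counts a library.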

Other observations

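The split of all genes called between knockout and wild-type BMDMs with LPS was 632 higher and 647 lower under TMM and 1139 and 433 under library totals, whose median over all genes was 0.152, and for the BMDM interaction it was 441 and 357 against 691 and 255. Genes near Casp1 and Casp4 on chromosome 9 had 1 call in labelled-knockout RAW264.7, Gm7390, at 0.84 with PBS and 0.62 with LPS, the median of the 4 tested being 0.41 and 0.36. For LPS in wild type, Kbtbd3 in that stretch fell in both cell types (-1.12 in RAW264.7 and -1.43 in BMDMs) and Casp12 rose in BMDMs (4.82).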
